A study of Drosophila melanogaster with 6 samples.

Results

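The genes of DNA replication and of the cell cycle engine were examined in brains of Drosophila melanogaster pupae. The set held 40 named genes: the origin recognition complex, the licensing factors, the MCM helicase, the replication clamp and nucleotide supply, cyclins, their kinases and 1 inhibitor, the Cdc25 phosphatases, the E2F and Rb regulators, mitotic kinases, and spindle checkpoint and anaphase genes. The members were taken by gene name from a table of 17807 genes. All 40 were found, and all 40 were among the 11198 genes that passed the filter on low counts and were tested.

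Brains were collected 24 h after puparium formation from flies kept at 25 °C, and poly(A) RNA was sequenced strand-specifically in 3 libraries per genotype. One genotype was wild type (WT). The other, TetAXXC, carried a mutation of the CXXC zinc-finger domain of Tet, the fly relative of the TET dioxygenases. It was made by CRISPR/Cas9 cutting and homology-directed repair in a nos-Cas9 stock, and the DsRed marker used for selection was later excised with a piggyBac source. The labels named 30 brains per genotype and called the libraries independent biological replicates, but gave no sex, no zygosity and no stock of origin for the WT flies. Whole brains were used, so a lower value could mean fewer cells of a type or less RNA per cell, and these cannot be told apart.

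Before replication, the origin recognition complex (ORC) marks start sites, and double parked (dup, the fly Cdt1) loads the ring of MCM proteins that later unwinds the DNA. Cyclins paired with cyclin-dependent kinases (CDKs) then start S phase and mitosis. Removal of an inhibitory phosphate from Cdk1 by a Cdc25 phosphatase is the last step into mitosis. Drosophila has a pair of Cdc25 genes: string (stg) acts in somatic divisions, and twine (twe) is needed for meiosis in the male germ line. In the early pupal brain most neuroblasts, the neural stem cells, stop dividing, while those of the mushroom bodies go on longer.

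Library totals ran from 17861742 to 19521285 counts, and members had between 32 counts (Orc2 in WT 2) and 6002 counts (E2f1 in TetAXXC 3). Tet itself had 848, 685 and 827 CPM (counts scaled by each library's total) in WT 1, 2 and 3 and 854, 808 and 939 CPM in TetAXXC 1, 2 and 3, a log2 fold change of 0.13 (SE 0.10) with an adjusted p of 0.499 in edgeR's quasi-likelihood test. Counts per gene do not resolve the edited domain, so these values do not check the genotype. The neuronal marker elav averaged 478 CPM in WT and 468 CPM in TetAXXC, and the glial marker repo averaged 151 CPM in both. Of the 7 glial markers 4 fell in TetAXXC (57.1%, against 3.17% of all genes called lower). Gat fell to 34.5%, alrm to 47.0%, moody to 85.5% and wrapper to 87.7% of the WT level. The markers nrv2, at 105%, and Eaat1, at 106% of the WT level, were not called, and nor was repo. The part of the glial markers in the members' values was not tested. Transcripts typical of testis stood apart: 22 of the 29 testis markers tested were higher in TetAXXC (75.9%, against 12.1% of all genes) and 0 were lower. The summed level of the 35 found was 264, 159 and 202 CPM in WT and 1725, 626 and 825 CPM in TetAXXC.

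Few cell cycle genes passed the main test between the genotypes, which was fitted on genotype alone. CycB3, a mitotic B-type cyclin, and dacapo (dap), an inhibitor of the CDK that drives S phase, rose. stg, the somatic Cdc25, fell. The other 37 members did not pass the main test, and the fit with a replicate block is given below. The 3 calls made up 7.50% of the members, while 15.2% of all genes tested were called (12.1% higher and 3.17% lower in TetAXXC). When only genes averaging 4 log2 CPM or more were fitted, which leaves out low counts, 2 of 26 members passed (stg and CycB3, 7.69%), against 4.24% of the 6320 genes there. The members' median log2 fold change was 0.066, and that of all genes tested was 0.0041. In direction, 27 members had positive and 13 had negative log2 fold changes, and they ran from -0.30 for stg to 1.26 for twe. Over all genes tested, 5720 were positive and 5478 negative.

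In 12 of the 40 members the WT and TetAXXC libraries did not overlap in CPM, against 32.1% of all genes tested (21.4% higher and 10.7% lower in TetAXXC). The 10 that lay higher in TetAXXC were Orc4, CycB3, CycD, Cdk1, dap, twe, E2f2, Dp, aurA and Bub1. The 2 that lay lower were stg and Cdk4. Libraries with the same number deviated together from their group means, and a fit with the replicate number as a block called 9 of 40 members (22.5%), against 21.1% of all genes. The 6 members called under the block but not without it were CycB, CycE, twe, polo, Bub1 and fzy, all higher in TetAXXC. Of the other tests, DESeq2 called 4 members against 17.0% of all genes, and limma-voom called 1 against 1.16%. These counts depended on single libraries. The members' calls were 1 without WT 1, WT 2, WT 3 or TetAXXC 3, 2 without TetAXXC 1 and 8 without TetAXXC 2. The share called over all genes was 0.462% without WT 2, 0.891% without WT 3, 9.60% without TetAXXC 1 and 7.97% without TetAXXC 3. Without WT 1 it was 1287 of 11702 genes, and without TetAXXC 2 it was 2095 of 11633, a share close to that of the 8 members among 40.

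**Figure D1:**
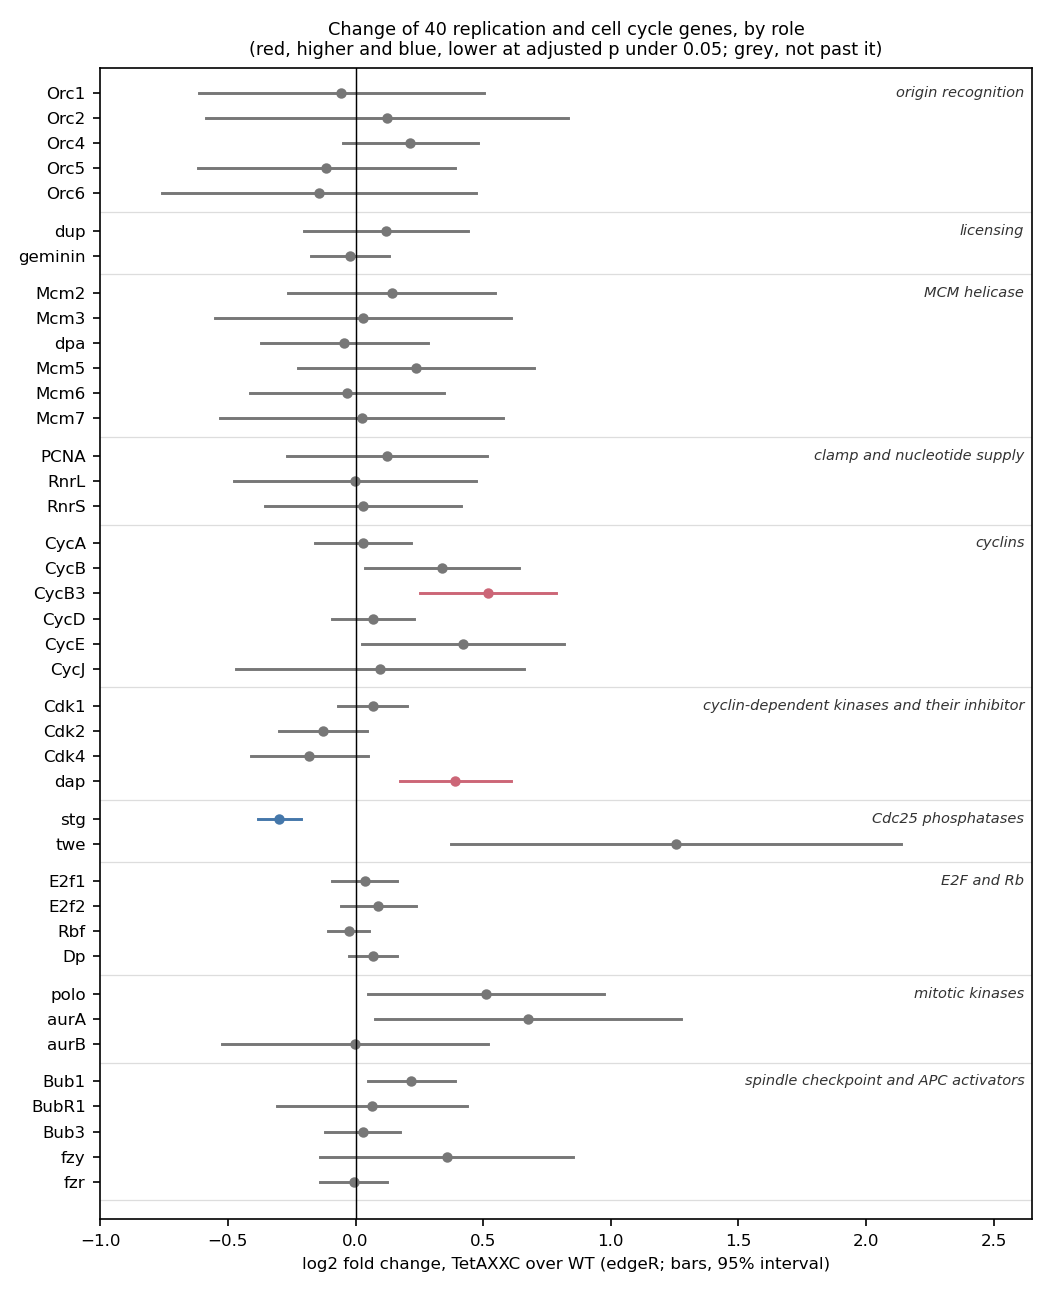
Log2 fold change of each of the 40 members, TetAXXC over WT, grouped by role. Points are edgeR estimates and bars are 95% intervals, with called genes in red (higher) or blue (lower) and the rest in grey. CycB3 and dap lie to the right of 0, stg lies to the left with the short bar of an abundant gene, and twe lies farthest to the right with a wide bar.

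Levels between genes were compared in CPM per kilobase of merged exon (CPM per kb). Bub3 and stg led in WT, at 58.1 ± 3.71 and 57.6 ± 0.853 CPM per kb (SD, n = 3), and did not differ beyond the spread of their libraries. They were followed by fizzy-related (fzr, the Cdh1 activator of the anaphase-promoting complex) at 46.6 ± 3.02, the transcription factor E2f1 at 46.0 ± 1.36 and its partner Dp at 43.0 ± 0.277. In TetAXXC Bub3 stood at 59.7 ± 4.40 CPM per kb, and E2f1 at 47.5 ± 2.74, stg at 47.2 ± 1.15 and fzr at 46.7 ± 0.955 lay within each other's spread. At the other end of the WT order stood Orc1 at 1.14 ± 0.0106, Orc2 at 1.21 ± 0.291 and twe at 2.20 ± 0.204 CPM per kb. Much of the order between was not resolved, since 28 of the 39 neighbouring pairs overlapped in their WT libraries. The MCM genes, from Mcm2 at 3.76 to Mcm6 at 6.85 CPM per kb, sat well below the E2F and Rb genes, of which E2f2 was the lowest at 17.6.

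No member gene of the replication machinery passed. Of its 16 members (5 ORC genes, dup and geminin, 6 MCM genes, PCNA, RnrL and RnrS), 0 were called by edgeR, 0 had an unadjusted p under 0.05, and 0 were called under the replicate block. Their log2 fold changes ran from -0.14 (Orc6) to 0.24 (Mcm5), with a median of 0.027 and adjusted p from 0.292 to 0.996. Their 95% intervals together reached from -0.76 to 0.83, so changes beyond that span lay outside every interval. Precision differed between genes: the interval of geminin, which binds and holds back dup, extended 0.15 to each side on the log2 scale, and that of Orc2 extended 0.71. It did not follow abundance alone. Mcm3, at 13.2 CPM in WT, had an interval of -0.55 to 0.61, and the scarcer Orc4, at 9.90 CPM, one of -0.05 to 0.48. Under the block the interval of Mcm3 was -0.22 to 0.33.

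Among the ORC genes Orc4 alone was separated, with 9.63, 9.88 and 10.2 CPM in WT 1 to 3 and 12, 12.1 and 10.6 CPM in TetAXXC 1 to 3. All 3 TetAXXC libraries lay above the WT libraries, but the log2 fold change of 0.21 (SE 0.11) had an adjusted p of 0.292 in edgeR. The other ORC members overlapped between groups: Orc1 at a log2 fold change of -0.06, Orc2 at 0.12, Orc5 at -0.11 and Orc6 at -0.14. The licensing factor dup measured 14.2, 17.8 and 16.4 CPM in WT and 17.2, 15.4 and 20.3 CPM in TetAXXC. Its inhibitor geminin measured 35.7, 34.6 and 32.8 CPM in WT and 32.4, 33.8 and 36.2 CPM in TetAXXC. Neither separated the genotypes.

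The MCM genes encode the 6 subunits of the replicative helicase, dpa being Mcm4. They varied more between libraries of a genotype than between genotypes. Their summed level was 81.9, 86.1 and 105 CPM in WT 1, 2 and 3 and 82.8, 83.1 and 117 CPM in TetAXXC 1, 2 and 3. The library numbered 3 was the highest in both genotypes for all 6 MCM genes, and also for PCNA, the sliding clamp, and RnrL, the large subunit of ribonucleotide reductase. RnrS, the small subunit, peaked in WT 2 and TetAXXC 3. Over the 40 members, 17 (42.5%) were highest in library 3 of both genotypes, against 1120 of the 11198 genes tested. As an example, Mcm7 measured 13.5, 17.2 and 18.9 CPM in WT and 13.3, 14.4 and 23.1 CPM in TetAXXC, with a log2 fold change of 0.02 and an adjusted p of 0.971. PCNA measured 15.3, 15.0 and 18.3 CPM in WT and 15.3, 15.9 and 22 CPM in TetAXXC. Mcm5, with the largest estimate of the 6, measured 10.7, 9.99 and 11.1 CPM in WT and 9.60, 12 and 16.1 CPM in TetAXXC, so that the TetAXXC libraries spanned the WT range. What the equal numbers stand for, beyond replicates, is not given in the sources used here.

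**Figure D2:**
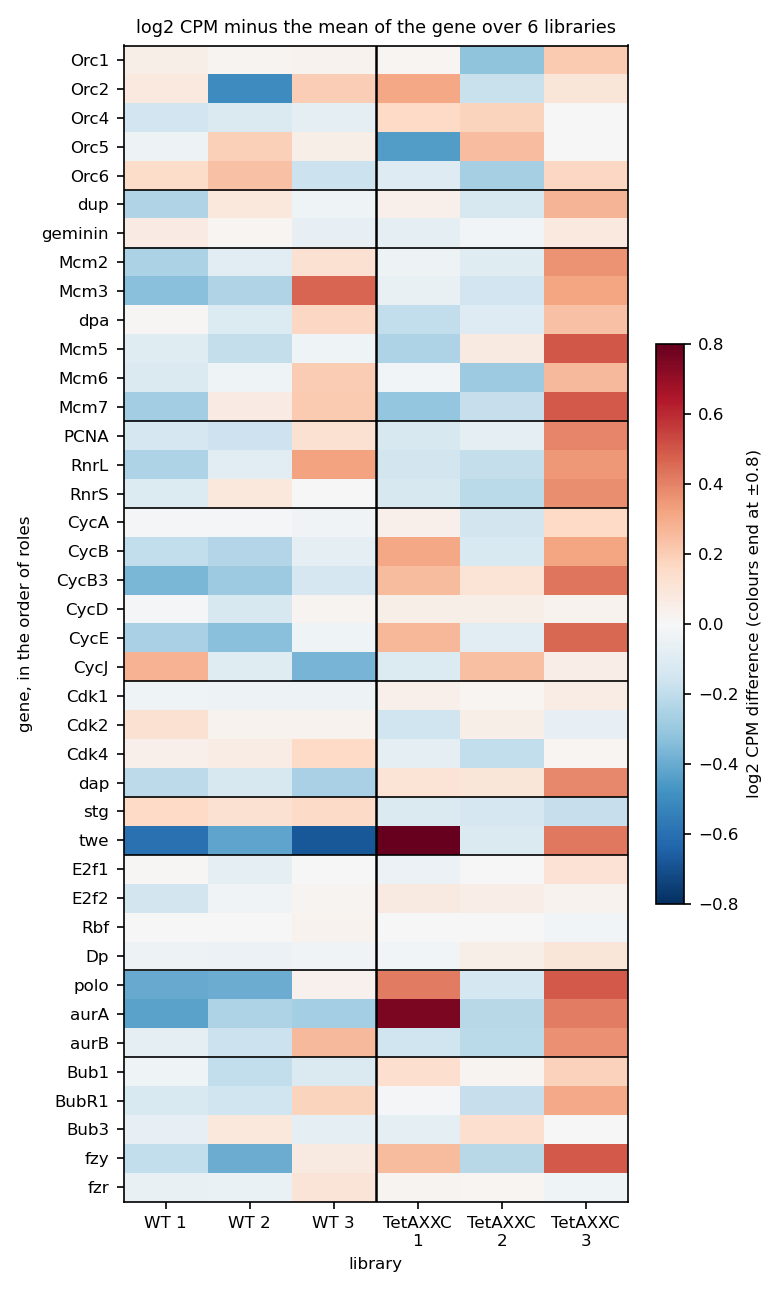
Heat map of the 40 members (rows, by role) in the 6 libraries (columns), as log2 CPM minus the gene's mean over all libraries; colours end at 0.8 to either side, and twe in TetAXXC 1 lies beyond. The MCM genes, PCNA and RnrL have their highest value within each genotype in the library numbered 3, while stg divides the genotypes.

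All 6 cyclin genes had positive log2 fold changes, as had 5720 of the 11198 genes tested. Of the 6, 1 passed (16.7%, against 15.2% of all genes). CycB3 (FBgn0015625, chromosome 3R, 24867934 to 24870816, minus strand, Release 6) measured 17.3, 18.2 and 20.3 CPM in WT and 26.5, 24.0 and 30.0 CPM in TetAXXC, means of 18.6 ± 1.56 and 26.8 ± 3.01 (SD, n = 3). Every TetAXXC library exceeded every WT library. CycB3 rose by 0.52 on the log2 scale (SE 0.11, 95% interval 0.25 to 0.78, adjusted p 0.0261 in edgeR). Leaving out any 1 library kept the log2 fold change between 0.43 and 0.57, but the adjusted p ran from 0.0201 to 0.105 and passed only without TetAXXC 2. limma-voom gave 0.0891.

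CycB, the other B-type cyclin of mitosis, was at 44.0, 43.0 and 48.0 CPM in WT and at 62.4, 46.3 and 62.9 CPM in TetAXXC. TetAXXC 2 lay within the WT range while the other two lay above it, and the log2 fold change of 0.34 (SE 0.13) had an adjusted p of 0.143 without the block and 0.0185 with it. CycE, which pairs with Cdk2 to start S phase, had the same profile, with 11.6, 11 and 13.6 CPM in WT and 16.7, 13.1 and 19.1 CPM in TetAXXC. Its log2 fold change was 0.42 (SE 0.17), with an adjusted p of 0.162 in edgeR and 0.0243 under the block. CycA, which acts in S phase and before mitosis, was close to level at 64.5 ± 0.535 and 66.2 ± 6.94 CPM. CycD, the G1 cyclin that pairs with Cdk4, and CycJ, a cyclin known from the female germ line, did not pass either (log2 fold change 0.07 and adjusted p 0.613 for CycD, 0.10 and 0.872 for CycJ, in edgeR).

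Among the kinases none passed, and their inhibitor did. Cdk1, the mitotic kinase, was very even within each genotype, with 26.4, 26.3 and 26.3 CPM in WT and 27.8, 27.3 and 28.2 CPM in TetAXXC. The groups did not overlap, yet the log2 fold change was 0.07 (95% interval -0.07 to 0.20). Cdk4 was lower in each TetAXXC library, at 15.0, 13.8 and 16 CPM against 16.3, 16.5 and 17.7 CPM in WT, with a log2 fold change of -0.18 and an adjusted p of 0.305 in edgeR. Cdk2, the S phase kinase, measured 29.1, 27.2 and 27.2 CPM in WT and 23.9, 27.6 and 25.5 CPM in TetAXXC, with a log2 fold change of -0.13 and an adjusted p of 0.341 in edgeR.

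dap (FBgn0010316, chromosome 2R, 9712321 to 9716256, plus strand) is the fly member of the CIP/KIP inhibitors, binds CycE with Cdk2, and is switched on as cells leave the cell cycle. It measured 28.2, 29.9 and 27.2 CPM in WT and 35.2, 34.9 and 42.5 CPM in TetAXXC, means of 28.4 ± 1.34 and 37.5 ± 4.29 (SD, n = 3). The lowest TetAXXC library stood above the highest WT library. dap rose by 0.39 on the log2 scale (SE 0.092, 95% interval 0.17 to 0.61, adjusted p 0.0326 in edgeR). It passed without TetAXXC 1 and without TetAXXC 2, and not when any other library was left out, with adjusted p from 0.0334 to 0.120 over the 6. limma-voom gave 0.103, and restricting the fit to genes of at least 4 log2 CPM gave 0.0505. CycE and dap, which act on the same kinase in opposite senses, both had positive fold changes, of which that of dap passed.

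Beside these genes, 12 of 13 neuroblast markers tested had positive log2 fold changes, with a median of 0.12, against 5720 of the 11198 genes tested. Of the 13, 2 rose, a share of 15.4% that is near the 15.2% of all genes. nerfin-1, a transcription factor of newborn neurons and their precursors, had 44.4, 43.0 and 62.9 CPM in WT and 74.2, 105 and 114 CPM in TetAXXC (adjusted p 0.0244 in edgeR). worniu (wor), a neuroblast transcription factor, had 1.00, 0.329 and 0.784 CPM in WT and 1.83, 2.20 and 3.26 CPM in TetAXXC (adjusted p 0.0482). The summed level of all 13 overlapped between genotypes, at 3330 to 4657 CPM in WT and 4127 to 5196 CPM in TetAXXC. Most of that sum came from brat, pros and Syp, at 1502, 1238 and 1162 CPM in WT, so it does not describe scarce markers such as wor. Of 9 ecdysone-response genes that serve to stage pupae, 4 fell and 0 rose (44.4%, against 3.17% of all genes called lower). Hr4 fell to 44.8%, Eip78C to 59.1%, Eip63F-1 to 65.6% and Eip74EF to 73.6% of the WT level, and the other 5 were not called. Of the 9, 3 had positive and 6 had negative log2 fold changes. Among those not called, br was higher in every TetAXXC library (log2 fold change 0.58, adjusted p 0.0835 in edgeR). Hr3 was lower in every TetAXXC library (-0.52, adjusted p 0.138). The part of neuroblast number or of developmental stage in the values of CycB3, dap and stg was not tested.

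The mitotic kinases polo and aurA were higher on average in TetAXXC but did not pass. polo, the Polo-like kinase of mitosis, measured 38.3, 38.5 and 51.7 CPM in WT and 67.4, 45.8 and 71.1 CPM in TetAXXC. TetAXXC 2 lay within the WT range and the other two lay above it. The log2 fold change of 0.51 (SE 0.20) had an adjusted p of 0.147 in edgeR and of 0.00611 under the block. aurA, the Aurora kinase of centrosomes, measured 6.05, 6.86 and 6.72 CPM in WT and 13.7, 6.97 and 10.8 CPM in TetAXXC, so that TetAXXC 2 almost met the WT libraries. Its log2 fold change was 0.67 (SE 0.25, adjusted p 0.140), and 0.43 without TetAXXC 1. aurB, the Aurora kinase of the chromosomal passenger complex, averaged 7.95 ± 1.29 CPM in WT against 7.99 ± 1.88 in TetAXXC.

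Among the 5 checkpoint and anaphase genes none passed without the block. Bub1, a checkpoint kinase of the kinetochore, measured 42.5, 37.9 and 40.2 CPM in WT and 47.6, 44.2 and 49.5 CPM in TetAXXC. The groups did not overlap, and the log2 fold change of 0.22 (SE 0.072) had an adjusted p of 0.0930 in edgeR and 0.0317 under the block. fizzy (fzy), the Cdc20 activator of the anaphase-promoting complex, measured 12.6, 10.9 and 15.1 CPM in WT and 17.2, 12.3 and 20.3 CPM in TetAXXC, with an adjusted p of 0.360 and, under the block, 0.0478. BubR1 and Bub3, which help to hold the complex in check, had log2 fold changes of 0.07 and 0.03. fzr, which replaces fzy at the end of mitosis and keeps the complex active in cells that have stopped dividing, measured 130 ± 8.42 CPM in WT and 130 ± 2.66 CPM in TetAXXC. Its 95% interval ran from -0.14 to 0.12 on the log2 scale.

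**Figure D3:**
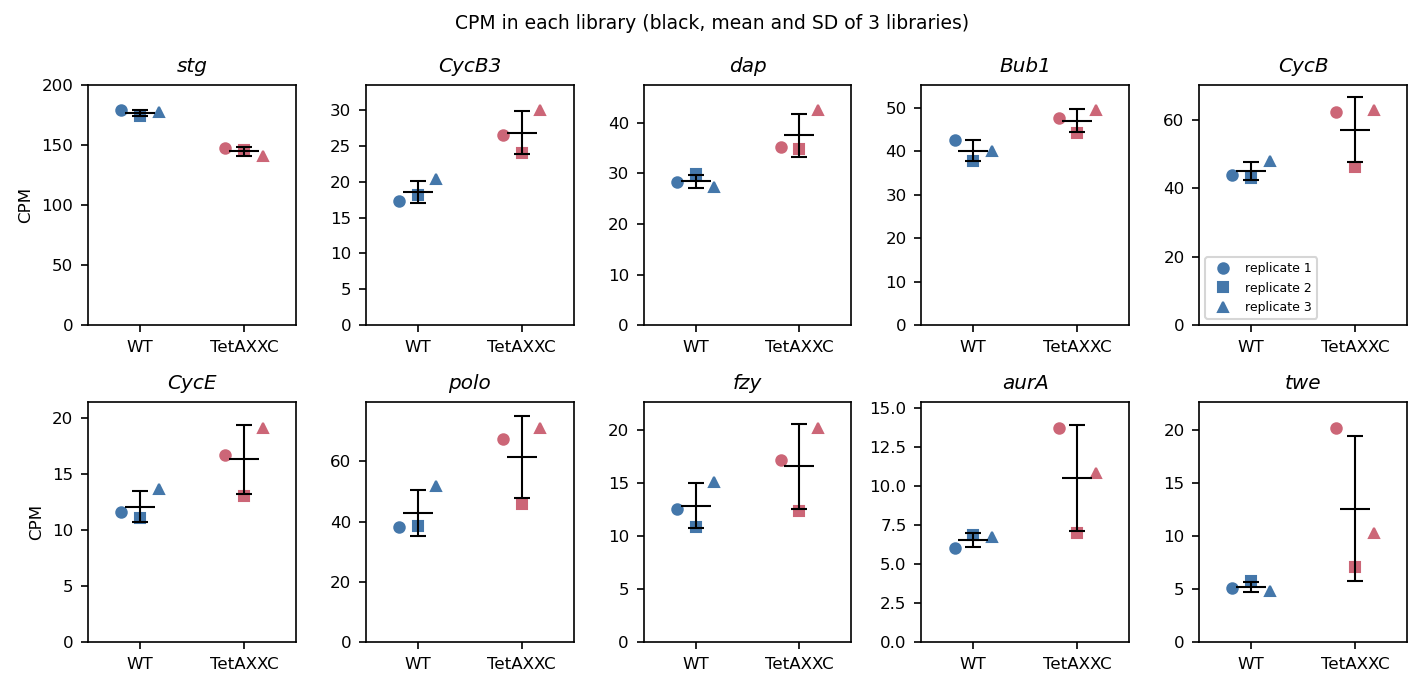
CPM of 10 members in each library, 1 panel per gene with its own axis; points are libraries, and bars are means with SD (n = 3). stg is lower and CycB3, dap and Bub1 are higher in every TetAXXC library, whereas CycB, CycE, polo and fzy have TetAXXC 2 within the WT range.

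The E2F and Rb genes control transcription of S phase genes. E2f1, the activator, was the member with the most counts, averaging 297 ± 8.77 CPM in WT against 306 ± 17.7 in TetAXXC. Its log2 fold change of 0.04 had a 95% interval of -0.09 to 0.16. Rbf, the Rb protein that restrains E2F, was the most tightly measured member, at 106, 105 and 108 CPM in WT and 106, 105 and 104 CPM in TetAXXC, with an interval of -0.11 to 0.05. E2f2, the repressor, and Dp, the partner of both E2F proteins, were each higher in every TetAXXC library. E2f2 measured 33.0, 35.8 and 37.1 CPM in WT and 38.4, 37.9 and 37.2 CPM in TetAXXC. Dp measured 137, 137 and 139 CPM in WT and 139, 146 and 151 CPM in TetAXXC. Neither passed (adjusted p 0.450 for E2f2, at a log2 fold change of 0.09, and 0.354 for Dp, at 0.07, in edgeR).

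Of the Cdc25 genes stg fell, while twe was higher in each TetAXXC library without passing the test. stg (FBgn0003525, chromosome 3R, 29251826 to 29255800, minus strand) measured 179, 174 and 177 CPM in WT and 147, 145 and 141 CPM in TetAXXC, means of 176 ± 2.61 and 145 ± 3.53 (SD, n = 3). The libraries of a genotype lay within a few CPM of each other and the genotypes were far apart by comparison. stg fell by 0.30 on the log2 scale (SE 0.036, 95% interval -0.38 to -0.21, adjusted p 0.0124 in edgeR), which left 81.9% of the WT level. It passed under each of the 14 alternatives run, with log2 fold changes from -0.33 to -0.28 and adjusted p from 1.00e-07 to 0.0427. stg was the 1 member called in every setting.

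twe (FBgn0002673, chromosome 2L, 16259414 to 16261877, minus strand) was scarce in WT, at 5.11, 5.76 and 4.81 CPM, and measured 20.2, 7.12 and 10.3 CPM in TetAXXC. All 3 TetAXXC libraries were above WT, and TetAXXC 1 was the highest. The means were 5.23 ± 0.486 and 12.5 ± 6.82 CPM (SD, n = 3), and the log2 fold change of 1.26 (SE 0.37, 95% interval 0.38 to 2.14) had an adjusted p of 0.0681 in edgeR. The adjusted p was 0.0109 in DESeq2, 0.0194 under the block and 0.0195 without TetAXXC 2. Leaving out TetAXXC 1 reduced the log2 fold change to 0.73, at an adjusted p of 0.0886.

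Per kilobase, stg exceeded twe by 27.2, 23.4 and 28.6 times in WT 1 to 3 and by 5.67, 15.9 and 10.6 times in TetAXXC 1 to 3. The lowest WT ratio was above the highest TetAXXC ratio. The log2 ratio of their counts averaged 5.07 ± 0.15 in WT and 3.66 ± 0.75 in TetAXXC, a difference of -1.41. An exact permutation test over the 6 libraries gave a two-sided p of 0.10, the smallest that 3 libraries against 3 allow. With the libraries paired by number the exact p was 0.25, again the smallest possible. The difference was -1.02 without TetAXXC 1. As stg dropped by 0.30, most of the difference lay in twe.

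**Figure D4:**
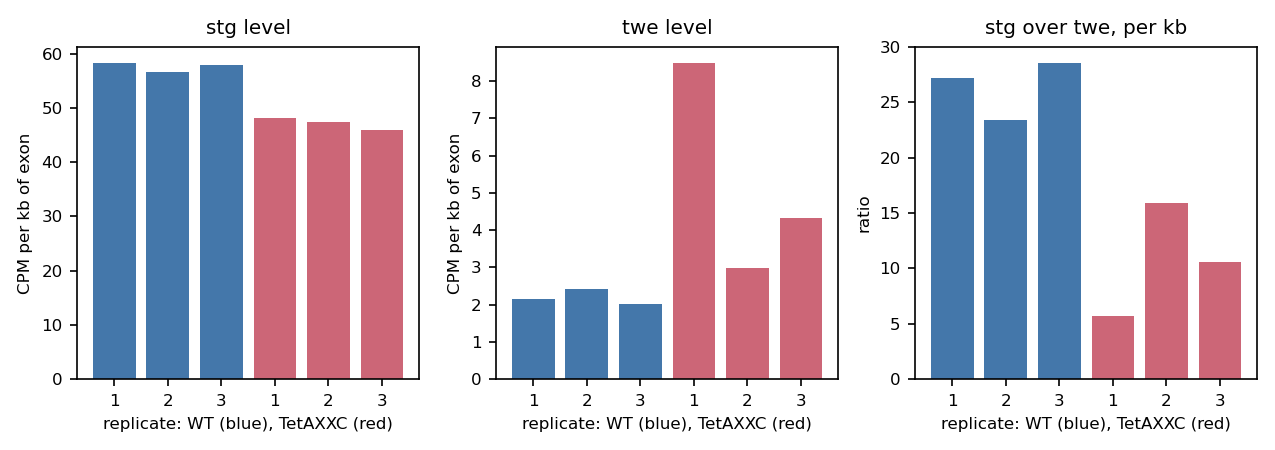
Levels of stg and twe in CPM per kb of merged exon, and their ratio, in each of the 6 libraries. Bars start at 0; the ratio is 23.4 or more in the WT libraries and 15.9 or less in the TetAXXC libraries, where twe is higher and stg lower.

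The order of twe across the TetAXXC libraries was that of the testis markers. Their summed level was highest in TetAXXC 1 (1725 CPM), then TetAXXC 3 (825 CPM) and TetAXXC 2 (626 CPM), and twe followed with 20.2, 10.3 and 7.12 CPM. aurA had the same order, at 13.7, 10.8 and 6.97 CPM. So did Orc2, which overlapped between the genotypes, at 3.08, 2.66 and 2.20 CPM. With 3 libraries such an order carries little weight, and how many of all genes share it was not counted. polo, CycB, CycE and CycB3 were higher in TetAXXC 3 than in TetAXXC 1 and lowest in TetAXXC 2. In WT the testis sum was highest in WT 1 (264 CPM), while twe was highest in WT 2 and polo in WT 3. Some listed testis markers are not silent in these WT brains, with Pen at 96.0 and bol, which the meiotic list also holds, at 49.6 CPM, while comr, a testis-specific regulator, was at 0 in all 3 WT libraries. The part of testis transcripts in the values of twe, aurA and the other mitotic members was not tested. When both libraries numbered 1 were left out, stg passed, and CycB3 (adjusted p 0.119 in edgeR) and dap (0.0930) did not.

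Few other genes of the pathway passed the test. Of 117 further replication, mitosis and cell cycle genes tested, 3 rose and 0 fell (2.56%, against 15.2% of all genes), with a median log2 fold change of 0.068. The calls were 1 of 37 replication genes and 2 of 80 genes of mitosis and cell cycle control. SAK, the Plk4 kinase that starts centriole assembly, had 23.3, 24.0 and 24.4 CPM in WT and 31.0, 28.1 and 30.0 CPM in TetAXXC, a rise of 0.31 on the log2 scale (adjusted p 0.0292 in edgeR). Cdc7, the kinase that activates the loaded MCM ring, had 43.5, 40.5 and 43.5 CPM in WT and 52.3, 49.0 and 50.3 CPM in TetAXXC, a rise of 0.24 (adjusted p 0.0347). Rca1, an inhibitor of the anaphase-promoting complex, had 35.7, 38.4 and 38.8 CPM in WT and 43.1, 44.4 and 44.7 CPM in TetAXXC, a rise of 0.22 (adjusted p 0.0378). In all of these genes the groups did not overlap. None of the 3 calls held in limma-voom, and the list had 0 calls when WT 1, WT 2, WT 3 or TetAXXC 1 was left out, 1, a lower one, without TetAXXC 3 and 6 without TetAXXC 2. Under the block 13 of the 117 were called (11.1%, against 21.1% of all genes), 12 higher and 1 lower in TetAXXC. The lower one was Claspin, a replication checkpoint gene, with a log2 fold change of -1.04 and an adjusted p of 0.0205 in edgeR with the block and 0.112 without it.

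Meiotic and germ line cell cycle genes, the setting of twe, were mostly too low to test or not called. Of 20 found, 15 were tested, 2 rose and 0 fell (13.3%, against 15.2% of all genes). Under the block 4 of 15 were called (26.7%, against 21.1%), with bol at a log2 fold change of 0.97 and sub at 1.10 added. ord, needed for meiotic sister chromatid cohesion, had 9, 3 and 1 counts in WT and 96, 20 and 59 counts in TetAXXC, a log2 fold change of 3.68 (adjusted p 0.0287 in edgeR). fzr2, a relative of fzr, had 69, 59 and 51 counts in WT and 223, 104 and 120 counts in TetAXXC, a log2 fold change of 1.26 (adjusted p 0.0417). Both were highest in TetAXXC 1, and neither passed in limma-voom or when WT 2, WT 3, TetAXXC 1 or TetAXXC 3 was left out.

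No member shared exon bases with another gene on the same strand. On the opposite strand, 81.7% of the exon length of Mcm7 was covered by asRNA:CR45871, which had 23 to 39 counts per library, and 43.9% of that of Cdk2 by CG17267, which had 6 to 20. E2f2 was covered over 19.9% of its exon length by Mpp6, which had 155 to 254 counts per library. Bub3 was covered over 15.9% and twe over 4.1% of their exon length, and stg, CycB3, dap, polo and CycB not at all. The strand setting used for counting is not given in the sources used here. For covered members such as Mcm7, Cdk2 and E2f2, reads from the shared bases could thus be lost or misassigned, which was not tested. Mcm7 stood at 6.75 CPM per kb in WT, within the MCM range of 3.76 to 6.85.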

How the data were processed

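Poly(A)-selected, strand-specific RNA-seq libraries of pupal brains, 3 WT and 3 TetAXXC, were grouped by their titles. The authors deposited whole-number read counts per gene in the layout of featureCounts, per the file headers; all count columns were matched to a library by name. The submitters' processing notes name Trimmomatic 0.39, HISAT2, SAMtools, featureCounts, DESeq2 and the BDGP6 and dm6 builds; the remaining versions and the settings are not given in the sources used here. Coordinates are those of the deposited table and equalled the Release 6 annotation for all 40 members.

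CPM were computed from the raw library totals, and CPM per kb from the merged exon length. After filterByExpr (minimum count 10, minimum total 15) and TMM scaling, genes were tested with edgeR 4.0.16 (estimateDisp, glmQLFit with legacy dispersions, glmQLFTest) in R 4.3.3, two-sided, with Benjamini-Hochberg adjustment over all 11198 genes and a threshold of 0.05. SEs came from the coefficient and its F statistic. The stg to twe ratio used a pseudocount of 0.5 and an exact permutation test. Alternatives were RLE and upper-quartile scaling, other filters, DESeq2 1.42.0, limma 3.58.1 (voom), a replicate block and left-out libraries; leaving out both libraries numbered 1 was added after seeing the data. The script was tested on simulated data.

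Same-numbered libraries deviated together (r = 0.652, 0.419 and 0.343 across genes, which are not independent replicates). Of the unmatched pairs, WT 3 with TetAXXC 2 alone was positive (r = 0.23). The main fit used genotype only, and the numbers were taken as pairs in the fit with a replicate block. Chi-square per degree of freedom between replicates was 6.94 to 17.8, so no library was present more than once. Members, lists and tests were chosen with earlier results of these data known. From the wider and germ line lists, genes were named if past the threshold with the smallest adjusted p and no overlap between groups. Claspin, bol and sub were not past it in the main fit and were named for their calls under the block. Tet, Orc3, marker genes and genes overlapping members were named outside this rule. Promoter sequences were not analysed here.

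Marker lists not printed with the members gave these counts: 0 of 8 neuron, 0 of 7 optic lobe neuroepithelium and 0 of 6 eye genes were called, against 15.2% of all genes. In TetAXXC 4 of 7 glia (57.1%) and 2 of 6 fat body genes (33.3%) fell, against 3.17% of all genes. Of early germ cell genes 1 of 9 rose (11.1%), near the 12.1% of all genes, and of hemocyte genes 2 of 6 (33.3%). Those 2 were Col4a1 and vkg, while Hml, NimC1, srp and eater were not called.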

Additional observations from a re-analysis of the deposited data

How the results depend on the processing

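Over all genes, 1707 calls became 268 at a mean of at least 4 log2 CPM, 130 in limma-voom and 54 to 2095 with 1 library left out (54 without WT 2, 104 without WT 3, 2095 without TetAXXC 2). The members' 3 calls became 1 in limma-voom, 9 under the replicate block, 1 without both libraries numbered 1, and 1 to 8 with 1 library left out: 1 without any WT library or TetAXXC 3, 2 without TetAXXC 1, 8 without TetAXXC 2. The wider list's 3 calls became 0 at a mean of at least 4 log2 CPM, 0 in limma-voom, 13 under the block, 0 without both libraries numbered 1 and 0 to 6 with 1 library left out. The germline list's 2 calls became 0, 0, 4, 1 and 0 to 4 in the same order, and 4 in DESeq2. The stg to twe difference stayed between -1.76 and -1.02. The block changed no member call other than the 6 it added.

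Across settings that used all libraries, 249 member values kept their direction and side of the threshold, 7 gained the call, 3 lost it and 7 changed sign. With libraries left out these numbers were 225, 5, 11 and 39. Sign changes concerned small log2 fold changes. Without both libraries numbered 1, geminin was 0.041, Mcm3 -0.070, dpa 0.029 and aurB 0.033. With upper-quartile factors RnrL was 0.016, aurB 0.016 and fzr 0.0094; at a mean of at least 4 log2 CPM RnrL was 0.017 and fzr 0.013. Mcm7 was -0.010 in limma-voom and -0.00036 under the block. With 1 library left out, the log2 fold changes ranged as follows. Orc1 ran from -0.19 to 0.052, Orc2 from -0.070 to 0.24, Orc5 from -0.30 to 0.051, geminin from -0.078 to 0.011, Mcm2 from -0.018 to 0.22, Mcm3 from -0.13 to 0.31, dpa from -0.19 to 0.038, Mcm6 from -0.19 to 0.069, Mcm7 from -0.27 to 0.17 and PCNA from -0.064 to 0.21. RnrL ran from -0.20 to 0.16, RnrS from -0.18 to 0.12, CycA from -0.046 to 0.084, CycJ from -0.070 to 0.28, E2f1 from -0.014 to 0.067, aurB from -0.22 to 0.11, BubR1 from -0.084 to 0.16, Bub3 from -0.054 to 0.071 and fzr from -0.043 to 0.025. The cause of these shifts was not tested. Depth limits the scarce members most, with 32 counts of Orc2 in WT 2.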

Other observations

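Orc3, the ORC subunit outside the 40 members, had 0 counts in all 6 libraries. All 3315 bases of its exons coincide with exons of CG34315 on the same strand, which also had 0 counts, so the table gives no level for Orc3.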
